A study of Mus musculus with 4 samples.

Results

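The genes described here belong to the cell's antioxidant defence: enzymes that make, use and recycle glutathione, the peroxiredoxins and thioredoxins that pass electrons through paired cysteines, and the superoxide dismutases and catalase that remove reactive oxygen species. They were taken as every probe set of the array with exactly 1 gene symbol on the platform annotation that names a glutathione transferase of the alpha, mu, pi, theta, omega or zeta class, a glutathione peroxidase, a peroxiredoxin, a superoxide dismutase, a thioredoxin or a thioredoxin reductase, or that is Txnip, Cat, Gsr, Gss, Gclc or Gclm. This gave 51 of 12488 probe sets, for 37 genes. Of these, 39 probe sets, for 32 genes, were bright enough to test.

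The study measured total RNA of hippocampal area CA1 on 4 Affymetrix mouse arrays, 1 array per sample. All 4 samples were controls of young male C57BL/6J mice, which an experimenter handled and which were given no other treatment. RNA extraction followed the final shock of a separate set of treated mice by 1, 2, 4 or 6 h. Treated mice are not analysed here, how many mice gave each sample is not stated, and C57BL/6J is 1 inbred strain, so the samples speak for handled males of that background. With 1 array per hour, differences between hours have no replicate check, and precision is limited by the number of arrays. A signal is the authors' linear intensity of 1 probe set, and changes are read across arrays. Brighter and dimmer probe sets are told apart only by how strong their signal is, which is no measure of how abundant one transcript is beside another. In bulk tissue, fewer cells of a type and less RNA per cell cannot be told apart.

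Glutathione is a tripeptide built by the ligases encoded by Gclc, Gclm and Gss and returned to its reduced form by the reductase encoded by Gsr. Glutathione transferases couple it to reactive compounds, glutathione peroxidases use it to reduce peroxides, and peroxiredoxins do the same work with electrons from thioredoxin, which thioredoxin reductase recharges from NADPH. In the brain astrocytes are the main makers and exporters of glutathione, and they supply its precursors to neurons. Many of these genes are targets of NRF2, a transcription factor released from KEAP1 under oxidative stress, which binds an element called the antioxidant response element.

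The array as a whole set the limits for these genes. The 2 h array stood apart from the other 3: the signal of the Gapdh 3' probe set was 1.08 times that of its 5' probe set at 2 h but 3.62 to 4.10 times elsewhere, and for beta-actin it was 1.72 times at 2 h but 2.27 to 2.93 times elsewhere. The highest ratio was that of the 1 h array, the reference of the differences below, for Gapdh and that of the 6 h array for beta-actin. Which arrays had the sounder RNA was not tested. Of the 5 pyramidal markers fixed, 4 were on the array and 3 were tested. The summed signal of the 4 was 6976 at 2 h and between 8430.0 and 9791 on the other arrays. Against 1 h, 3 of the 4 were lower at 2 h, such as the CA1 marker Wfs1 with signals of 2293, 1877, 2484 and 2508 at 1, 2, 4 and 6 h, and 1 was higher, Camk2a with 41.0, 351, 195 and 43.3. Of 9 astrocyte markers, 7 were on the array and tested, with a summed signal between 19980.3 and 21963. Of 7 oligodendrocyte markers 6 were on the array, with sums between 20719.5 and 26807. Of 5 choroid plexus markers 4 were on the array, with a sum of 1857 at 2 h and between 662 and 1141 on the others. Of 5 blood markers 3 were on the array, with sums between 2568 and 3258. All 7 microglia markers were on it, with sums between 7875 and 8918. The 5 endothelial markers summed to 884 at 2 h and between 1075 and 1304 elsewhere. The 5 interneuron markers summed to 20610 at 2 h and between 22799 and 23459 elsewhere. For dentate granule cells 2 of 3 markers were on the array, with 103 at 2 h and between 186 and 214 elsewhere. No marker list was at 0, and the part of these cell types in the results below was not tested.

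The element bound by NRF2 has a core often written TGACNNNGC. It was searched on both strands of the RefSeq promoters in the build GRCm38.p6, each covering 250 bases before and 50 bases after a gene's start. Of the 37 genes, 32 had promoters there, 41 in all, and 5 of these held the core, 12.2%, against 12.4% of all 32851 promoters. Within this window the share was thus near that of promoters in general. Sites farther from the start, and genes with no promoter there, were not covered by the search. The 5 matches are shown with 20 bases on each side, on the gene's strand, because control by NRF2 is the best-known regulation that these genes share. Capitals mark the core, which reads on the opposite strand for Gclm, Txnrd1 and Sod1.
Gsta3, chr1:21240444-21240492, + strand: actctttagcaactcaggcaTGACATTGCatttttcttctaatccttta
Gstm5, chr3:107895792-107895840, + strand: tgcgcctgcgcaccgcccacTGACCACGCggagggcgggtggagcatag
Gclm, chr3:122245403-122245451, + strand: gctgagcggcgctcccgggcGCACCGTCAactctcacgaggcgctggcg
Txnrd1, chr10:82859094-82859142, + strand: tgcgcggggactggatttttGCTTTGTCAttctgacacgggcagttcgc
Sod1, chr16:90220686-90220734, + strand: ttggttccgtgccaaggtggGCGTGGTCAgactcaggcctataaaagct
A match is a string of letters and not a measured site. In the values that follow, Gclm was lowest at 1 h, Sod1 and the brighter probe sets of Gstm5 at 2 h and Txnrd1 at 4 h. The dimmer tested probe set of Gstm5 was lowest at 1 h, like Gclm, and Gsta3 was too dim to test. The part of NRF2 in these values was not tested.

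Most redox probe sets stayed within 2-fold over the 4 hours, as did most probe sets of the array. The range over the 4 arrays stayed under 1.5-fold for 21 of 39 tested probe sets, 53.8%, against 46.4% of all 7237 tested, and under 2-fold for 34 of 39, 87.2%, against 77.4%. A range of at least 4-fold was about as common, at 5.13% against 4.56%. The SD of the log2 differences from 1 h over the redox probe sets was 0.68, 0.70 and 0.67 at 2, 4 and 6 h, where that over all probe sets was 0.66, 0.54 and 0.54. Without the Gstm5 probe set 100631_r_at, left out after its values were seen, it was 0.48, 0.50 and 0.47, so 1 probe set decides whether the redox genes spread more or less than the rest. The median log2 difference from 1 h was -0.03 at 2 h, -0.01 at 4 h and 0.03 at 6 h, beside -0.0032, 0.02 and 0.02 for all tested probe sets. Dividing each array by its median moved the medians of all probe sets to -0.13, -0.09 and -0.12 and those of the redox genes to -0.16, -0.12 and -0.11, so differences of about that size have no settled sign. No redox probe set passed limma's test of a straight-line slope over the hours: 0 of 39 were called, beside 0.0% of all, and every adjusted p was at least 0.9996. Counted at an unadjusted p under 0.05 instead, limma gave 0 of 39, beside 2.71% of all. Without the 1 h array that count was 3 of 38, beside 625 of all 7233 probe sets. Without the 2 h array it was 3 of 40, beside 416 of 7219. Without the 6 h array it was 2 of 39, beside 123 of 7270. After median centring it was 2 of 39, beside 214 of 7234.

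**Figure D1:**
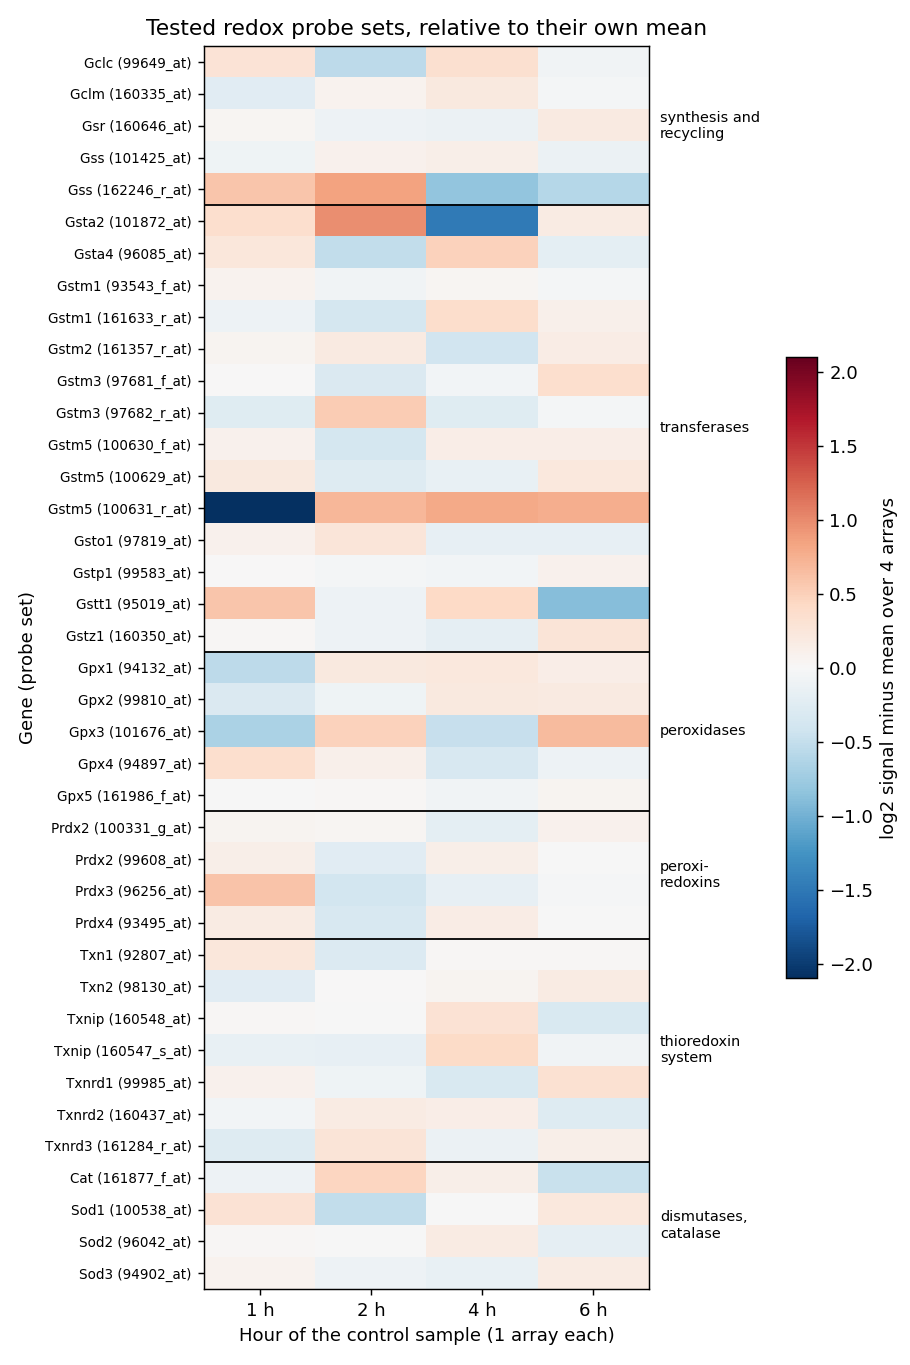
Heat map of the 39 tested redox probe sets, in rows grouped by role, on the 1, 2, 4 and 6 h arrays, in columns. Colour gives log2 signal, after the floor, minus the probe set's mean over the 4 arrays. Most cells are pale, and the darkest is the Gstm5 probe set 100631_r_at at 1 h.

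The redox probe sets that were 2-fold from 1 h lay at the dim end of the array, where such differences were most common for all probe sets. At 2 h, 2 of 39 were at least 2-fold higher, beside 6.92% of all probe sets, and 0 were at least 2-fold lower, beside 3.29%. At 4 h, 1 was higher, beside 3.69%, and 2 were lower, beside 2.51%. At 6 h, 2 were higher, beside 3.74%, and 2 were lower, beside 2.79%. In either direction the share was 5.13%, 7.69% and 10.3% of the redox probe sets at 2, 4 and 6 h, beside 10.2%, 6.20% and 6.54% of all. Each count in 1 direction is of at most 2 probe sets. They belonged to 5 genes, Gstm5, Gpx3, Gss, Gsta2 and Gstt1, and each of the 5 probe sets lay in the dimmest of 3 equal groups of those tested. That group held 10 redox probe sets, of which 2, 3 and 4 were 2-fold from 1 h, beside 18.3%, 15.5% and 16.6% of all dim probe sets. None of the 15 redox probe sets in the brightest group, with a mean signal from 759, was 2-fold from 1 h at any hour, where 4.93%, 0.58% and 0.332% of all bright probe sets were at 2, 4 and 6 h. Dividing each array by its median ended this at 2 h, where the bright Prdx3 then stood at -1.11 on the log2 scale, 1 redox probe set at least 2-fold lower in place of 0.

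**Figure D2:**
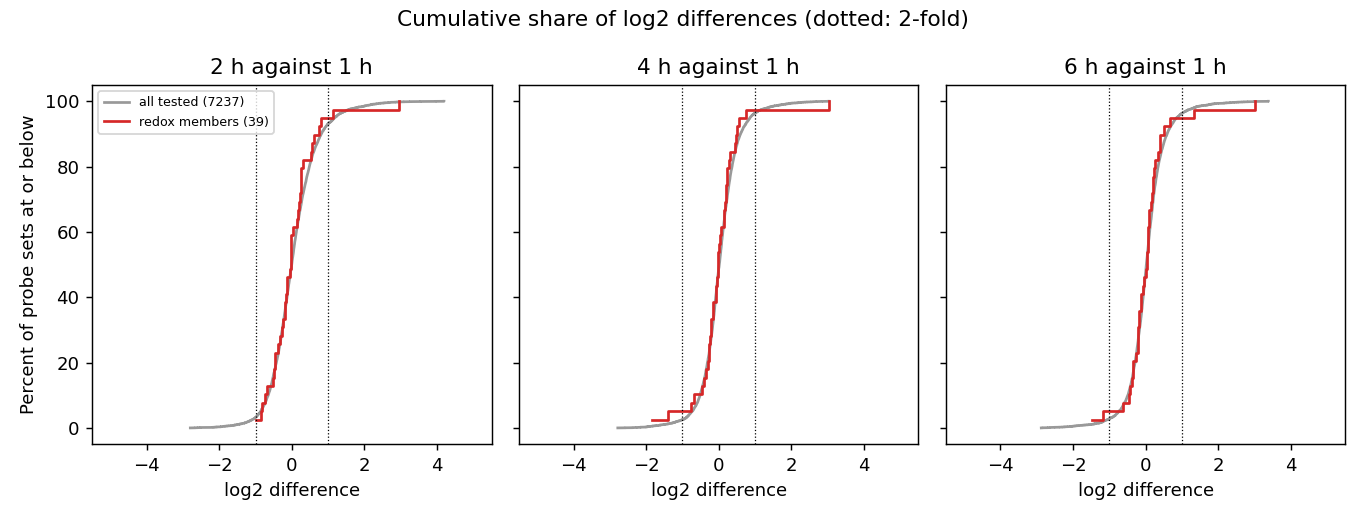
Cumulative share, in percent, of log2 differences from the 1 h array for the 39 redox probe sets (red) and all 7237 tested probe sets (grey), with 1 panel each for 2, 4 and 6 h and dotted lines at 2-fold. The curves overlap over most of their length, and the rightmost red step in each panel is the Gstm5 probe set 100631_r_at.

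Glutathione synthesis and recycling was measured by 5 probe sets for 4 genes, all tested. Gclc encodes the catalytic subunit of the rate-limiting ligase, and had signals of 708.5, 394, 728.5 and 550.5 at 1, 2, 4 and 6 h. It was lowest on the 2 h array, at 0.556 times the 1 h signal, and the other 3 values lay higher. Gclm encodes the modifier subunit of that ligase and had 359, 444, 485 and 408. The 2 subunits thus differed in the place of the 2 h array, which was the lowest for Gclc and the second highest for Gclm. Gss, which adds the last amino acid, had 406, 461, 469 and 397 on its brighter probe set, 433 ± 37.2 (SD over the 4 arrays). Its dimmer probe set 162246_r_at had 211, 253, 80.0 and 93.6, so that 4 and 6 h were 0.380 and 0.444 times the 1 h signal while the brighter one stayed at 1.16 and 0.977 times. The name ending _r_at marks a probe set whose probes had to be chosen under relaxed rules. Gsr, the reductase, had 548, 494.5, 493 and 612, 537 ± 56.4 (SD over the 4 arrays).

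The mu class of glutathione transferases, which conjugate glutathione to electrophiles and other reactive compounds, gave the most probe sets, and also the least certain ones. In RefSeq's assembly GRCm38.p6 the 7 coding mu genes lie side by side, in the order Gstm5, Gstm7, Gstm6, Gstm3, Gstm2, Gstm1 and Gstm4, with 0 other coding genes between them, and their transcripts are alike enough to bind each other's probes. Of the 12 mu probe sets, for 5 genes, 8 were tested, and 7 of these 8 have a marked name: _f_at for a probe set shared by a family, _r_at as above. The family values are therefore uncertain as to which gene they report.

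Gstm1, the main mu transferase of astrocytes and liver, had 10027, 9014, 9849 and 9223 on the family probe set 93543_f_at. That is 9528 ± 486 (SD over the 4 arrays), a range of 1.11-fold. Its other probe set, 161633_r_at, had 487, 405, 677 and 564, lowest at 2 h like the first but highest at 4 h where the first was highest at 1 h. Gstm3 had 1489.5, 1194, 1409 and 1878.5 on 97681_f_at, lowest at 2 h. Its dimmer probe set 97682_r_at had 524.5, 907, 522 and 609, highest at 2 h, so the pair pointed opposite ways on that array. Gstm2 had 363, 399, 265 and 389 on 161357_r_at, with 4 h the lowest.

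Gstm5, a mu transferase of brain and testis, had 4 probe sets, which disagreed. The brightest, 100630_f_at, had 15084, 11035, 15614 and 15607, with 2 h the lowest by a wide gap. The next, 100629_at, the only tested mu probe set with an unmarked name, had 3124, 2257, 2440 and 3159, with 2 h again the lowest. The third, 100631_r_at, had 52.2, 400.4, 428 and 418: the 1 h signal alone was low, and the other 3 lay close together. It was 7.67, 8.19 and 8.0 times as high at 2, 4 and 6 h as at 1 h, log2 differences of 2.94, 3.03 and 3.0, and was the 1 redox probe set with the 1 h array at least 2-fold below each other array, beside 1.45% of all probe sets. Its 1 h signal lay within 2-fold of 36.8, the floor to which lower values were set. The fourth, 161722_f_at, was too dim to test and had 134, 40.2, 206 and 138.5. Only 100631_r_at therefore gave the 8-fold step, while the 2 brighter probe sets stayed between 0.723 and 1.04 times their 1 h signal.

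**Figure D3:**
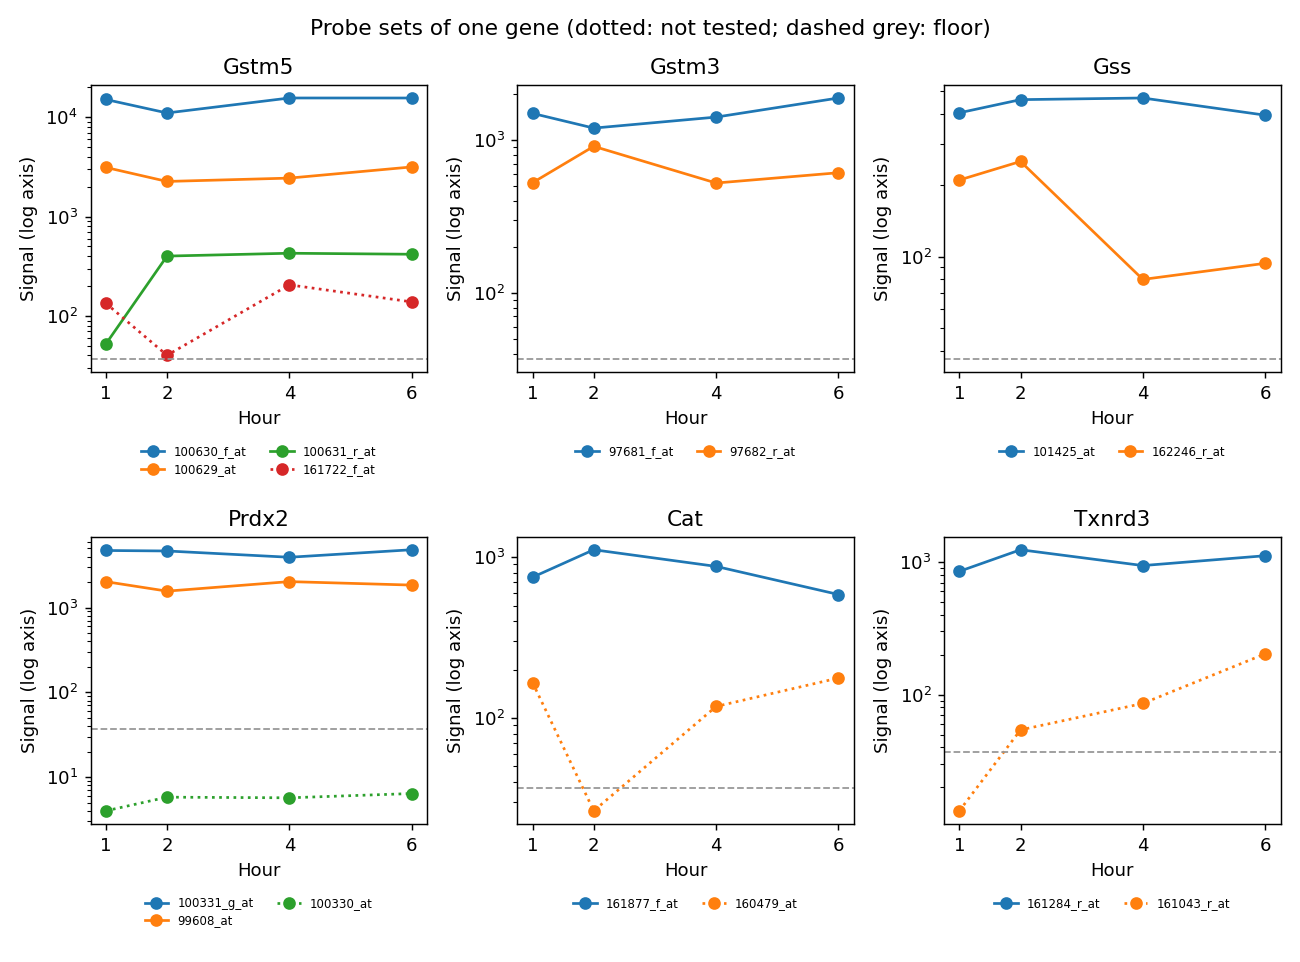
Signal (log axis) against hour for each probe set of Gstm5, Gstm3, Gss, Prdx2, Cat and Txnrd3, 1 panel per gene and 1 point per array, with dotted lines for untested probe sets and a dashed grey line at the floor of 36.8. The step of Gstm5 100631_r_at between 1 and 2 h and the drop of Gss 162246_r_at between 2 and 4 h have no counterpart in the brighter probe sets of these genes.

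Of the 6 other tested transferase probe sets, the 2 dimmest ranged most over the hours. Gstp1, the pi transferase that marks oligodendrocytes in brain, had 5593, 5378, 5317 and 5858.5, which is 5537 ± 245 (SD over the 4 arrays). Its range was 1.10-fold. In the same assembly Gstp1 lies beside the related Gstp2 and Gstp3, so its probes may report these too. Gsto1, an omega transferase that also reduces dehydroascorbate, had 802, 902, 666 and 665. Gstz1, a zeta transferase of tyrosine breakdown, had 547, 503, 471 and 654. Gsta4, which detoxifies the lipid peroxidation product 4-hydroxynonenal, had 362, 215, 428 and 268, lowest at 2 h at 0.595 times 1 h. Gstt1, a theta transferase, had 184, 114, 164 and 66.6, so that 6 h was 0.361 times 1 h. Gsta2, an alpha transferase best known from liver, had 167, 256, 46.6 and 148, with 4 h at 0.279 times 1 h and under each of the other arrays by 2-fold or more. That was so at 4 h for 1.26% of all probe sets. The lowest signals of Gstt1 and Gsta2 lay within 2-fold of the floor.

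Glutathione peroxidases, most of which carry selenocysteine at the active site, were measured by 7 probe sets for 6 genes, 5 of them tested. Gpx1, the cytosolic enzyme, had 528, 885, 896 and 847. The 1 h array alone was low, and 2, 4 and 6 h were 1.68, 1.70 and 1.60 times as high. Gpx4, which reduces lipid peroxides in membranes and restrains ferroptosis, went the other way, with 1619.9, 1370.2, 1007 and 1178. It was highest at 1 h, and the 4 h signal was 0.622 times that. Gpx3, a secreted enzyme, had 118, 260, 133 and 296, so that 2 and 6 h were 2.20 and 2.51 times 1 h while 4 h was 1.13 times. After quantile normalization the 2 h difference was 0.94 on the log2 scale, short of 2-fold. Its 2 high arrays were also those with the highest sum of choroid plexus markers, which was 905, 1857, 662 and 1141 over the 4 hours. The part of choroid plexus in this was not tested. Gpx2, the enzyme of gut epithelium, had 215, 249.8, 304.5 and 304. Gpx5, an epididymal enzyme, had 155, 159, 149 and 162 on its tested family probe set 161986_f_at.

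Peroxiredoxins, the most abundant peroxide-reducing proteins of most cells, were measured by 5 probe sets for 3 genes, 4 of them tested. All 4, of which 2 are probe sets of Prdx2, had a 2 h signal below that of 1 h. Over all tested probe sets 49.7% lay above 1 h at 2 h, and the median log2 difference of the brightest group was -0.0975. On 100331_g_at of Prdx2 quantile normalization turned the sign. Prdx3, the mitochondrial member, had 3041, 1532, 1783 and 1974. The 1 h array was the highest, and 2 h stood at 0.504 times it, just short of 2-fold, which median centring carried past it. Prdx2, a cytosolic enzyme abundant in neurons and red blood cells, had 4709, 4649, 3919 and 4807 on 100331_g_at and 2020.1, 1562, 2023 and 1841 on 99608_at. The lowest array was 4 h on the first and 2 h on the second, and the ending _g_at marks a probe set shared within a gene group. The third, 100330_at, gave 4.00 to 6.40, under the floor on every array. Prdx4, the member of the endoplasmic reticulum, had 262, 185, 259 and 231, with 2 h the lowest.

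Thioredoxin genes were measured by 8 probe sets for 6 genes, 7 of them tested, and each of the 7 ranged over at most 1.56-fold on the 4 arrays. Txn1, the cytosolic thioredoxin, had 4432, 3065, 3829 and 3836, with 2 h the lowest at 0.692 times 1 h. Txn2, the mitochondrial thioredoxin, had 1763, 2089.9, 2178.5 and 2339.9, with 1 h the lowest and 6 h at 1.33 times it. The cytosolic and mitochondrial forms thus lay on opposite sides of their 1 h signal at every later hour, a difference that was not tested. Txnrd1, the cytosolic reductase, had 507, 449, 382 and 595.5. Txnrd2, the mitochondrial one, had 179.8, 212, 207 and 156. Txnrd3, a reductase of testis that also handles glutathione, had 849, 1236, 939 and 1114 on 161284_r_at. Txnip, which binds and inhibits thioredoxin and is induced by glucose, had 343, 336, 419.7 and 272 on 160548_at. On 160547_s_at, whose ending marks probes shared between transcripts, it had 210.4, 207, 308 and 222. Both probe sets of Txnip were highest at 4 h.

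Superoxide dismutases and catalase were measured by 5 probe sets for 4 genes, 4 of them tested. Sod1, the cytosolic copper and zinc enzyme, had 8478, 4785, 6849 and 8043. The 2 h array was the lowest, at 0.564 times 1 h. Sod2, the mitochondrial manganese enzyme, had 417, 408, 464 and 362, and Sod3, the extracellular one, had 482, 423, 411 and 514. These 2 ranged over 1.28-fold and 1.25-fold, less than Sod1 at 1.77-fold. Cat, the peroxisomal catalase, had 750.2, 1112, 876 and 586 on 161877_f_at, highest at 2 h. Its other probe set, 160479_at, too dim to test, had 166, 26.5, 118 and 177, lowest at 2 h and there under the floor.

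Bright probe sets, redox or not, often had their lowest signal at 2 h. In the brightest group the 2 h array was the lowest of 4 for 8 of 15 redox probe sets, beside 40.7% of all bright probe sets. Over all 39 it was the lowest for 13, 33.3%, beside 32.0% of all. The share over all 39 lay near that of the array. In the brightest group the redox share lay above that of all bright probe sets, a gap of few probe sets that was not tested. The 8 were Sod1, both bright Gstm5 probe sets, 93543_f_at of Gstm1, 97681_f_at of Gstm3, Txn1, Prdx3 and 99608_at of Prdx2. The mu probe sets among them may report the same transcripts, so the 8 are not separate counts. Against the mean of the other 3 arrays the 8 stood between 0.617 times for Sod1 and 0.930 times for Gstm1. No tested redox probe set had its 2 h signal at least 2-fold above each other array, beside 2.06% of all tested, or at least 2-fold below, beside 1.06%. The 2 h array was also the one with the low 3' over 5' ratio of Gapdh, 1.08. On it the sums of pyramidal, endothelial, dentate granule and interneuron markers were lowest, at 6976, 884, 103 and 20610. Those of astrocytes and choroid plexus were highest there, and those of oligodendrocytes, microglia and blood were neither. The part of the ratio and of these cell types in the redox values was not tested.

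**Figure D4:**
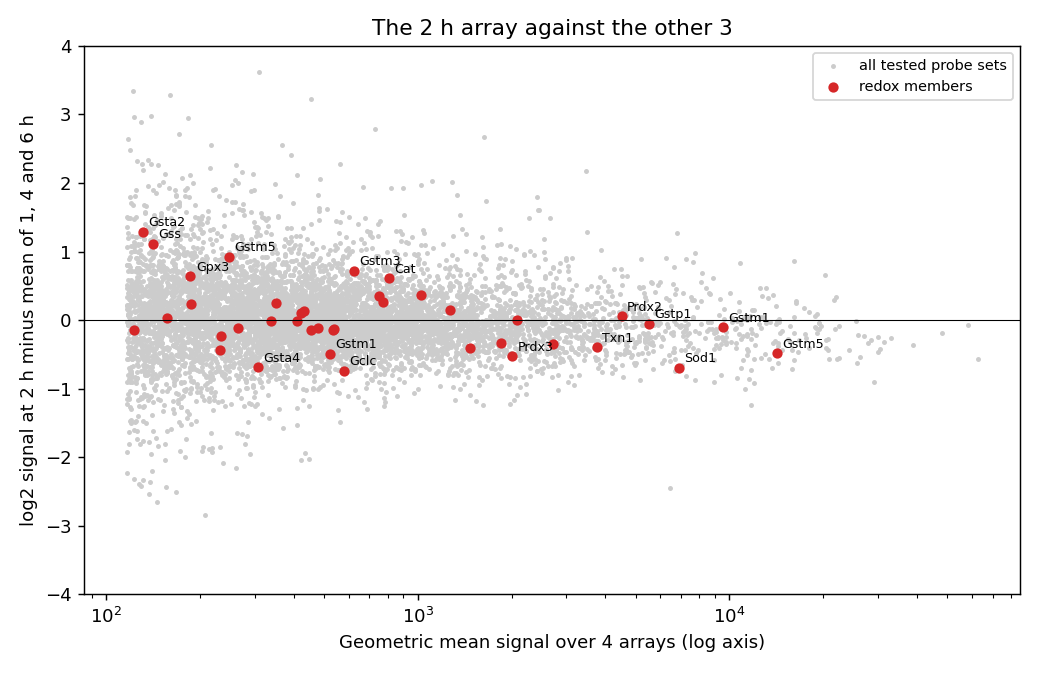
Log2 signal at 2 h minus the mean of the 1, 4 and 6 h arrays, against the geometric mean signal over the 4 arrays (log axis), for all tested probe sets (grey) and the redox members (red, some named). Bright members such as Sod1 and Gstm5 lie below 0, and Gsta2 and the dimmer probe set of Gss lie highest.

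Of the slopes over the hours, the 3 highest were those of Gstm5, Gpx3 and Gpx1. Gstm5 100631_r_at had 0.46 ± 0.20 log2 per hour (SE, 4 arrays), with an unadjusted p of 0.0514 and an adjusted p of 0.9996 by limma. Gpx3 followed with 0.16 ± 0.14 and Gpx1 with 0.10 ± 0.075. At the other end, Gss 162246_r_at had -0.31 ± 0.14, Gstt1 had -0.22 ± 0.15 and Gsta2 had -0.18 ± 0.20. These 3 slopes moved with single arrays: without the 6 h array the slope was -0.52 for Gss 162246_r_at, -0.0100 for Gstt1 and -0.70 for Gsta2, and without the 4 h array it was -0.0825 for Gsta2. Without the 2 h array limma called Gstm5 100631_r_at, with a slope of 0.63 and an adjusted p of 0.0004143, among 32 of 7219 probe sets, 0.443%. That fit has 1 residual degree of freedom, and the line rests on the low 1 h signal: without the 1 h array the slope was 0.02, and without the 6 h array it was 0.87. Over the alternatives run for it, the adjusted p of this probe set was between 0.0004143 and 1.0.

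At each hour at most 3 genes of the wider network were 2-fold from 1 h. The list held 85 genes of glutathione turnover, NADPH supply, NRF2 signalling, metallothioneins and selenoproteins, of which 64 were on the array and 52 tested, each by its brightest probe set. Limma called 0 of the 52 for a slope, with 1 at an unadjusted p under 0.05, beside 2.69% of all 5546 genes. Their median log2 difference from 1 h was -0.11 at 2 h, -0.11 at 4 h and -0.07 at 6 h, beside -0.0128, 0.0089 and 0.02 over all 5546 genes. At 2 h, 1 of 52 was at least 2-fold higher, beside 5.70% of genes, and 2 were at least 2-fold lower, beside 2.98%. At 4 h, 0 were higher, beside 3.05%, and 3 were lower, beside 2.42%. At 6 h, 1 was higher, beside 3.26%, and 1 was lower, beside 2.69%.

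At 2 h the widest differences in this list were those of Aldh2 and Tkt upward and Txnl1 and Mgst3 downward. Aldh2, the mitochondrial aldehyde dehydrogenase, had 297, 639.8, 469 and 367. Tkt, a transketolase of the pentose phosphate pathway, had 941, 1797, 1331 and 1494. Txnl1, a thioredoxin-like protein bound to the proteasome, had 1135, 487, 781 and 864.5. Mgst3, a microsomal glutathione transferase, had 3421, 1708, 2457 and 2644. The first pair was highest and the second pair lowest on the 2 h array.

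At 4 and 6 h other genes led. Pdia3, a disulfide isomerase, had 244, 347, 448 and 324, highest at 4 h, with Aldh2 next. Mgst1, a microsomal transferase, had 202.5, 116.4, 75.6 and 123, and Sephs2, which makes the selenium donor for selenoproteins, had 305, 157, 131 and 131. Sephs2 was 2-fold below 1 h at both 4 and 6 h. At 6 h Pgd, which makes NADPH in the pentose phosphate pathway, had 500.4 against 233, P4hb, the main disulfide isomerase, had 1813 against 1068.5, and Slc1a1, a transporter of glutamate and cysteine, had 330.0 against 590.5. Nfe2l2 itself, the gene of NRF2, had 405, 354.5, 361 and 353 and was named after its values were seen, as were its targets Hmox1, with 764, 826, 745 and 816, and Srxn1, with 327, 378, 339 and 251. These 3 ranged less than 2-fold, as did 77.4% of all tested probe sets. They are a choice from the list and do not stand for NRF2 targets as a whole.

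The remaining 12 redox probe sets were too dim to test, with signals between 4.00 and 206 and 20 of their 48 values under the floor. They covered Gsta1, Gsta3, Gstm6, Gstt2 and Gpx7, which had no tested probe set, and further probe sets of Gstm2, Gstm5, Gpx5, Prdx2, Cat and Txnrd3. Gsta1 and 100330_at of Prdx2 were under the floor on all 4 arrays. Gstm6 had 107, 39.7, 99.2 and 112 on 104637_at but 19.3, 84.3, 109 and 30.8 on 104636_at, so the first was lowest at 2 h, where the second was above its 1 h signal. Of the second, 2 values were under the floor. Txnrd3 161043_r_at had 13.3, 54.2, 85.8 and 203, where its brighter probe set had no such course. The tested probe sets nearest the filter of 116.4 were those of Gstt1 and Gsta2, with geometric means of 123 and 131, and the untested ones nearest it were Gstm5 161722_f_at and Cat 160479_at, with 111 and 106.

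Of 6 genes with several tested probe sets, the signs of the difference from 1 h agreed among the probe sets of 4 at 2 h, of 2 at 4 h and of 3 at 6 h. Gss, Gstm1, Prdx2 and Txnip had 1 sign at 2 h, Gstm3 and Txnip at 4 h, and Gss, Gstm3 and Gstm5 at 6 h. Quantile normalization changed the sign of 4, 3 and 2 of the 39 differences at 2, 4 and 6 h, and median centring of 1, 3 and 8. Those that changed were differences of small size, such as Gstp1 at 2 h, 100630_f_at of Gstm5 at 4 h and Sod3 at 6 h.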

How the data were processed

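The authors deposited an intensity, linear in scale, for every probe set on every array, made with software not given in the sources used. After removal of 2% of values at each end, the arrays' means differed by 0.00616%, around 500.3, so no further scaling was applied. Values under the pooled 20th percentile, 36.8, were raised to that floor before taking log2. Probe sets whose mean log2 reached the pooled 40th percentile, 116.4, were tested, 7237 of 12488, leaving out 66 manufacturer controls. Of the rest, 10833 had 1 symbol on the platform annotation, 396 several and 1193 none, and only those with 1 were named. Gene identifiers matched RefSeq for 10817 of the 10833. The update changed 0 of the 51 redox symbols.

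limma's slope of log2 signal per hour (eBayes with a mean-dependent prior, 2 residual degrees of freedom, two-sided, Benjamini-Hochberg over all tested probe sets at 0.05) was the one test. Differences of each hour from 1 h were counted at a threshold of 2-fold, without a test. With 1 array per hour, the p-values weigh each slope against departures from a straight line, not against spread between like samples. Such departures can include a curved course over the hours, an offset of the 2 h array and technical spread. The part of each was not tested. Nothing says that samples came from separate animals. In a test on simulated data of 7237 probe sets, limma found 22.0% of slopes of 0.4 log2 per hour, 73.0% of slopes of 0.8 and 0.0568% of unchanged ones. The slopes were planted in a small part of the probe sets, with noise drawn independently for each array. In the real data the 2 h array stood apart over many probe sets, so these shares need not hold there.

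The member genes, the wider list and the markers were chosen by function, with earlier results of these data known. Named were the brightest tested probe set of each redox gene, further ones at least 2-fold from 1 h, the 3 highest and 3 lowest slopes, and the 2 widest differences each way per hour in the wider list. Other probe sets, and Nfe2l2, Hmox1 and Srxn1, were named after their values were seen. Alternatives covered normalization, floor, filter, probe sets, the reference array, the fold threshold, the time scale, the variance prior and leaving out each array. Promoter sequences came from RefSeq, and matching protein or probe sequences were not used here. R 4.3.3, limma 3.58.1, Python 3.11.15 and pandas 2.3.3 were used.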

Additional observations from a re-analysis of the deposited data

Results flagged for a closer look

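All 4 arrays are controls, so they were also taken as 1 set, and a redox probe set was singled out where 1 array lay far from the other 3, its gap to the nearest one, as a share of the whole log2 range, exceeding the critical value of Dixon's test. This held for 4 of 39 tested probe sets, 10.3%, beside 6.44% of all 7237. Chance singles out about 1 in 20. Gstm5 100631_r_at was lowest at 1 h, with a signal of 52.2. Gpx1 was also lowest at 1 h, with 528.0. Gstm5 100630_f_at was lowest at 2 h, with 11035. Prdx2 100331_g_at was lowest at 4 h, with 3919. The array that stood off was thus 1 h for 2, 2 h for 1 and 4 h for 1, and no difference here has a replicate check.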

How the results depend on the processing

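The number of redox probe sets called for a slope was 0 under every alternative but 1, and that of all probe sets likewise. Leaving out 1 array at a time gave 0 to 1 redox probe sets and 0 to 32 probe sets in all, the upper values without the 2 h array. Over the same omissions the slope ran from -0.0159 to 0.219 for Gpx1, negative without the 1 h array, and from -0.0200 to 0.249 for Gpx3, negative without the 6 h array. It ran from -0.5179 to -0.2525 for Gss 162246_r_at, -0.2749 to -0.0100 for Gstt1 and -0.7021 to -0.0825 for Gsta2, where the last 2 did not pass the filter in every omission. Counts of redox probe sets at least 2-fold from 1 h were 2, 3 and 4 of 39 at 2, 4 and 6 h. Over all tested probe sets the shares were 10.2%, 6.20% and 6.54%. With no filter on dim probe sets the redox counts were 7 and 5 of 51 at 2 and 4 h, beside 14.0% and 12.7% of all. With a stricter filter they were 0 of 29 at each hour, since the probe sets concerned are dim. The shares of all were then 6.24%, 1.56% and 1.52%. Without marked probe sets the redox counts were 1, 1 and 2 of 26, beside 9.86%, 5.97% and 6.30%. With 1 probe set per gene they were 1, 1 and 2 of 32, beside 8.67%, 5.46% and 5.95%. A 1.5-fold threshold gave 10 and 6 of 39 at 2 and 4 h, beside 28.3% and 18.2%. At 2 h quantile normalization gave 1 of 39, beside 9.92%. Leaving out Gstm5 100631_r_at, an alternative chosen after seeing the data, gave 1 of 38 at 2 h, beside 10.2%. Against the mean of the other 3 arrays the 6 h count was 2 of 39, beside 4.96%. The count with the 2 h array at least 2-fold from each other array was 0 of 39, beside 3.12% of all. It was 3 of 51 with no filter, beside 4.15%, and 1 of 39 at 1.5-fold, beside 9.99%. The median log2 difference of the redox probe sets at 2 h, -0.03, was -0.13 after quantile normalization, -0.16 after median centring, -0.15 with the stricter filter and -0.13 without marked probe sets. At 4 h, -0.01 became -0.12 after median centring and 0.036 against the mean of the other arrays. At 6 h, 0.03 became -0.021 after quantile normalization, -0.11 after median centring and -0.11 without marked probe sets. Where no construction of the alternative shows it, the cause was not tested. No paired analysis was possible because each hour has 1 array.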
